A study of Mus musculus with 2 samples.

Results

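The genes described here are 40 genes of tissues that lie outside the neural tube, measured in dissected midbrain of E12.5 mouse embryos. They comprise 14 genes of epidermis and other epithelia, 16 genes of striated muscle and 10 genes of cartilage and bone. They were chosen by symbol, with earlier results of these data known. Each of the 40 was found in both deposited gene tables, among 43346 genes. RNA was sequenced in 2 libraries, which form 1 group: midbrain of strain B6NCrl embryos of mixed sex at 12.5 days, with no treatment named. Replicate 2 came from a pool of 88 embryos and replicate 1 from a pool of 120 embryos, so each value is an average over many animals. No second tissue or condition was analysed here, so the comparison below sets these pools against each other and says nothing of a treatment.

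Around the embryonic midbrain lie the surface ectoderm that becomes epidermis, the head mesenchyme that gives rise to meninges, cartilage and skull, and the muscle precursors of the eye and jaw. Basal epidermis is known for p63 and the keratin pair of Krt5 and Krt14, simple epithelia for the pair of Krt8 and Krt18, developing muscle for the MyoD family of transcription factors and the proteins of the sarcomere, and cartilage for an extracellular matrix of type II collagen, aggrecan and matrilins. In bulk RNA, a smaller number of cells of a type and less RNA per cell cannot be told apart.

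The libraries held 37381984 estimated counts in replicate 2 against 29430493 in replicate 1. Spike-in RNAs took 3.48% of the counts in replicate 2 and 4.14% in replicate 1. The tissue label was checked against 12 midbrain and neural genes, and all 12 were at 1 TPM or more in both libraries, while none of 6 Hox genes of the hindbrain was. The midbrain factor Otx2 was at 141.8 TPM in replicate 2 against 146.6 TPM in replicate 1. TPM is the authors' transcript abundance, corrected for length and scaled to the same total in each library, so levels can be compared between genes.

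The members were low beside other genes at a mean of at least 1 TPM, and most were still detected. At 1 TPM or more in both libraries stood 22 of the 40 genes, and 13 were under 1 TPM in both. Of all 43346 genes, 14895 were at 1 TPM or more in both. The median was 1.705 TPM over the 40 members and 0.065 TPM over all genes, many of which were not detected. The median over genes at a mean of at least 1 TPM was 17.5 TPM, and no member reached that level in its mean. Epithelial members had a median of 3.77 ± 0.693 TPM (SD, n = 2), cartilage and bone members 1.63 ± 0.894 TPM, and muscle members 0.840 ± 0.0566 TPM. Summed over the members, cartilage and bone genes held 58.3 TPM in replicate 2 against 29.96 TPM in replicate 1. The epithelial sums were 56.8 TPM in replicate 2 against 41.9 TPM in replicate 1, and the muscle sums 25.9 TPM in replicate 2 against 22.4 TPM in replicate 1. The cartilage and bone sum therefore differed most between the pools and the muscle sum least. The plot of the 40 levels shows each gene in each library.

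**Figure D1:**
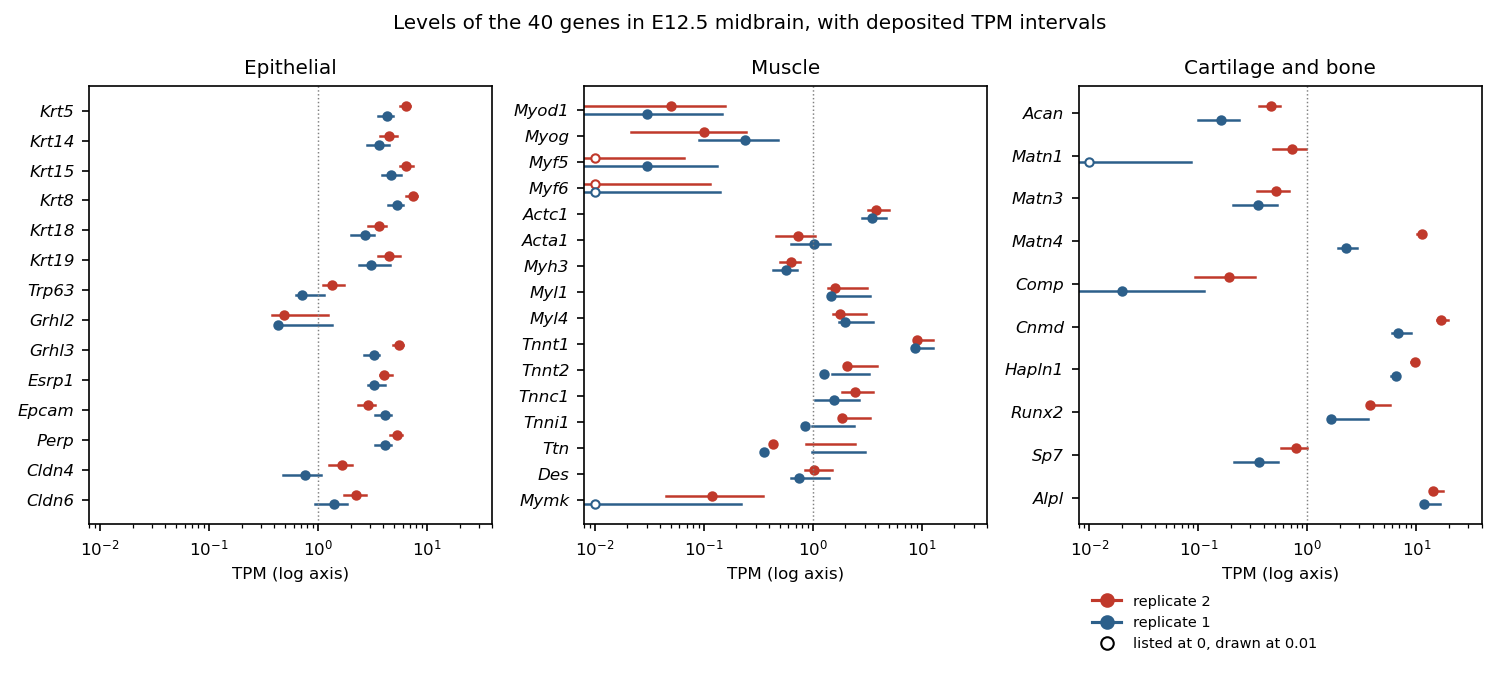
Deposited TPM of the 40 genes on a log axis, in replicate 2 (red) and replicate 1 (blue), with horizontal lines for the deposited TPM intervals and open points for genes listed at 0. The 4 MyoD family genes sit under 1 TPM, most epithelial genes sit between 1 and 10 TPM, and the intervals of Matn4, Cnmd and Matn1 are among those that do not overlap between the libraries. The intervals of Ttn lie above its points.

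Between the pools, 6 members were called higher in replicate 2 and 0 were called lower. The higher ones were Matn4, Cnmd and Runx2 of the skeletal group and Cldn4, Grhl3 and Krt19 of the epithelial group. A call required an adjusted p under 0.05 in an exact binomial test of the counts, a difference of 1.5-fold or more and a mean of 1 TPM or more. Of the 40 members, 35 had the 10 counts needed for the test and 25 also reached the TPM minimum. Over all 15199 genes at that minimum, 3.55% were called, 2.14% higher and 1.41% lower. At an unadjusted p under 0.05 in that exact test, 21 of the 35 members were higher and 2 were lower, against 15.6% and 16.7% of the 18939 genes with enough counts. The 21 include Matn1 and Comp, which had enough counts for the test through replicate 2 alone. Cldn4, Trp63 and Tnni1 reached the TPM minimum through replicate 2 alone, since each was under 1 TPM in replicate 1. The test covers counting error and not the spread between pools. In edgeR's negative binomial exact test, which carries a spread estimated from these same libraries, Matn4, Cnmd and Runx2 were called higher and 0 members lower, against 0.711% of all genes higher and 0.612% lower. With the added condition that the deposited TPM intervals of the libraries not overlap, Matn4, Cnmd, Cldn4 and Grhl3 were called higher and 0 members lower, against 1.16% of all genes higher and 0.73% lower.

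Cartilage and bone genes stood higher in replicate 2. The 5 genes at a mean of at least 1 TPM all had a ratio over 1, as had 49.7% of all genes at that level. Their median log2 ratio was 1.07, and the median over all genes at that level was -0.00. Matn1 and Comp had enough counts for the test through replicate 2 alone and are left out of the next count. The other 8 skeletal genes all had a ratio over 1, against 50.3% of the 18939 tested genes. Of these 8, 7 had an adjusted p under 0.05 at any ratio in the direction of replicate 2, against 10.8% of the tested genes.

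The promoters of 4 of these genes are shown because 3 were called and the fourth had counts in 1 library only. They are the 250 bases before the start of transcription in RefSeq (GRCm38.p6), read 5′ to 3′ on the gene's strand. Capitals mark matches on either strand to ACAANG, a core letter pattern of SOX factors such as Sox9, and to TGTGGT, that of RUNX factors.

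Matn4, chr2:164405161-164405410, minus strand: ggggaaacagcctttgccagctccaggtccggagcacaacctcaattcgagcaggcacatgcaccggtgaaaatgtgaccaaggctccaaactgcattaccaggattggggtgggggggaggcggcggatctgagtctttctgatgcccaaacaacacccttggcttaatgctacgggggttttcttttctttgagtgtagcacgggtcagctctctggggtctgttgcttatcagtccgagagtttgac
Cnmd, chr14:79662184-79662433, minus strand: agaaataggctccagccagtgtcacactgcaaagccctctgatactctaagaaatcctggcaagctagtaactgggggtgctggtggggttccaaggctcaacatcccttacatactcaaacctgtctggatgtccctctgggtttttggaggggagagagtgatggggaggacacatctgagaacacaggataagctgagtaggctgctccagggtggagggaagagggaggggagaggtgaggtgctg
Runx2, chr17:44814628-44814877, minus strand: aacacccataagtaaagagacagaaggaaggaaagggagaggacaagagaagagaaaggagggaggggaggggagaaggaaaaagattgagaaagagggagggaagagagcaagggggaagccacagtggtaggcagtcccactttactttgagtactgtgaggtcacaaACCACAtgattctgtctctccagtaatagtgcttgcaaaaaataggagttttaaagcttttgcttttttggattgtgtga
Matn1, chr4:130944135-130944384, plus strand: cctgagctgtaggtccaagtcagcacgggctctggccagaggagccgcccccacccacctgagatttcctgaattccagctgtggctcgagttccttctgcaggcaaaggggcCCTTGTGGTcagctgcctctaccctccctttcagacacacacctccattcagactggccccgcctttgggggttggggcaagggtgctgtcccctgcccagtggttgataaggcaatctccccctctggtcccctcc

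The Matn1 window held both patterns, at -137 and -134 from the start, where they overlap. The Runx2 window held the RUNX pattern at -80. These letters were not found in the windows of Matn4 and Cnmd shown, and the Cnmd start lies outside the annotated transcripts used here. RefSeq windows were found for 8 of the 10 skeletal genes, as 10 windows, of which 5 held the SOX pattern and 3 the RUNX pattern. Over all 32851 promoter windows of this length, 36.3% held the SOX pattern and 14.0% the RUNX pattern. A match is a description of letters and not a binding site.

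Matrilins are adaptor proteins that link collagen fibrils and proteoglycans in cartilage matrix. Matn4 (ENSMUSG00000016995.13, chromosome 2, 164389393 to 164405160 in mm10, minus strand) was at 11.2 TPM in replicate 2 against 2.28 TPM in replicate 1, from 611 counts in replicate 2 and 102 in replicate 1. The scaled counts differed 4.64-fold (95% interval 3.75 to 5.78, exact binomial test, adjusted p = 5.49e-61). This was the largest ratio among the called members. Its exons share 149 bases with Rbpjl on the opposite strand, which was at 0.13 TPM in replicate 2 against 0.01 TPM in replicate 1. Matn1, the matrilin of chondrocytes (chromosome 4, 130944385 to 130955475), had 31 counts and 0.73 TPM in replicate 2, and was listed at 0 in replicate 1, where 3 counts would be 0.0913 TPM. Set against 3 counts in replicate 1, it was 8.0-fold higher in replicate 2. The 95% exact binomial interval of its ratio had a lower limit of 6.13, with an adjusted p of 5.34e-07 in the exact binomial test. Its mean of 0.365 TPM was under the minimum for a call. Matn3, also a growth plate matrilin, was at 0.51 TPM in replicate 2 against 0.35 TPM in replicate 1, with an adjusted p of 0.477 in the exact binomial test. The matrilins thus differed among themselves in both level and ratio.

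Cnmd encodes chondromodulin, a membrane protein of cartilage that hinders vessel growth. It lies on chromosome 14 from 79637690 to 79662170 in mm10 (ENSMUSG00000022025.9) and was at 16.96 TPM in replicate 2 against 6.74 TPM in replicate 1. Its 458 counts in replicate 2 against 144 in replicate 1 gave a ratio of 2.46 (95% interval 2.04 to 2.99, exact binomial test, adjusted p = 9.49e-22). Cnmd was the most abundant of the 40 genes in replicate 2, and Alpl was in replicate 1. Acan, the core protein of aggrecan, had 75 counts in replicate 2 against 21 in replicate 1, a ratio of 2.76 (95% interval 1.69 to 4.72, exact binomial test, adjusted p = 0.000142). Its level of 0.46 TPM in replicate 2 against 0.16 TPM in replicate 1 kept it out of the calls. Hapln1, the link protein that ties aggrecan to hyaluronan and is also found in neural matrix, was at 9.70 TPM in replicate 2 against 6.55 TPM in replicate 1. Its ratio of 1.45 (95% interval 1.31 to 1.61) had an adjusted p of 1.30e-11 in the exact binomial test and was just under the 1.5-fold threshold. Comp, a pentameric matrix protein of cartilage and tendon, had 10 counts in replicate 2 against 1 in replicate 1, a ratio of 7.74 with a 95% interval of 1.10 to 336, and an adjusted p of 0.103 in the exact binomial test.

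Of the bone genes, Runx2, the transcription factor that commits cells to the osteoblast lineage, was at 3.75 TPM in replicate 2 against 1.64 TPM in replicate 1 (ENSMUSG00000039153.12, chromosome 17, 44495987 to 44814797). Its 278 counts in replicate 2 against 102 in replicate 1 gave a ratio of 2.11 (95% interval 1.68 to 2.67, exact binomial test, adjusted p = 5.47e-10). The deposited TPM intervals of the libraries overlapped, at 3.51 to 5.71 TPM in replicate 2 and 1.78 to 3.62 TPM in replicate 1, and the interval of replicate 1 did not contain its TPM. Runx2 also shares 519 exonic bases with Runx2os1 on the opposite strand, which was at 0.78 TPM in replicate 2 against 1.09 TPM in replicate 1, and the counting is not stated to use strand. Sp7, the osteoblast factor that acts after Runx2, had 49 counts in replicate 2 against 18 in replicate 1, a ratio of 2.11 with an adjusted p of 0.0313 in the exact binomial test, at a mean under 1 TPM. Alpl, the alkaline phosphatase of mineralising tissue that many other embryonic cells also make, was at 14.1 TPM in replicate 2 against 11.9 TPM in replicate 1. Its ratio of 1.16 (95% interval 1.03 to 1.30, exact binomial test, adjusted p = 0.0453) was the smallest of the skeletal group. Alpl therefore made up 24.2% of the summed skeletal TPM in replicate 2 and 39.6% in replicate 1, while Matn4 made up 19.1% in replicate 2 and 7.61% in replicate 1.

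**Figure D2:**
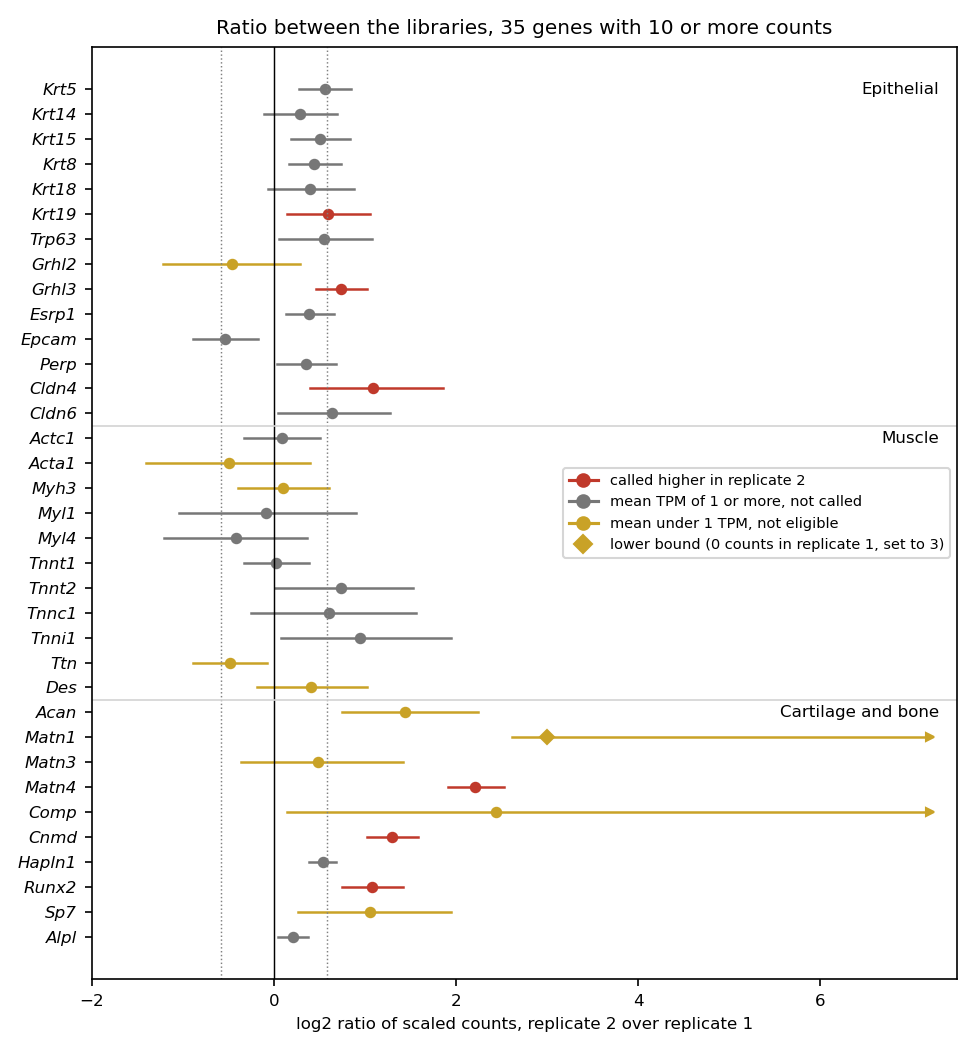
Log2 ratio of scaled counts, replicate 2 over replicate 1, for the 35 members with at least 10 counts, with 95% exact binomial intervals that cover counting error only. Dotted lines mark 1.5-fold, red points are the 6 genes called higher, and the diamond is the lower bound for Matn1. All 10 cartilage and bone genes lie right of 0, of which Matn1 and Comp had enough counts through replicate 2 alone, and the muscle genes lie on both sides.

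A wider cartilage and bone list of 30 genes was also higher in replicate 2 for most of its detected members. Of the 15 at a mean of at least 1 TPM, 14 had a ratio over 1, against 49.7% of all genes at that level. Among these 15, 7 were called higher and 0 lower, against 2.14% and 1.41% of all genes at that level. In edgeR's negative binomial exact test 6 of the 7 were called higher as well, against 0.711% of all genes. The median log2 ratio of the 15 was 0.47. The called gene with the highest level was Col2a1, the type II collagen of cartilage, at 161.1 TPM in replicate 2 against 109.8 TPM in replicate 1, a ratio of 1.502 (exact binomial test, adjusted p = 1.68e-200). The negative binomial exact test gave Col2a1 an adjusted p of 0.119. The largest ratio was that of Mia, a small secreted cartilage protein, at 2.44, followed by Col9a1 at 2.23 and Col9a3 at 2.13, chains of the type IX collagen on type II fibrils, and Col11a2 at 2.06. Sox9, the transcription factor of chondrocytes that neural progenitors also express, was at 121.5 TPM in replicate 2 against 108.3 TPM in replicate 1, a ratio of 1.10, and Sox5 was at 36.2 TPM in replicate 2 against 28.7 TPM in replicate 1. Genes of late stages were near 0 in both libraries. Col10a1 of hypertrophic cartilage had 6 counts in replicate 2 against 5 in replicate 1, the osteoblast gene Ibsp had 1 in each, and Mmp13 had 1 in replicate 2 and 0 in replicate 1.

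Epithelial genes mostly had ratios between 1 and 1.5. Of the 14, 12 had a ratio over 1, against 50.3% of the tested genes. Of the 13 eligible, 3 were called higher and 0 lower, against 2.14% and 1.41% of all eligible genes. An adjusted p under 0.05 at any ratio was reached by 7 in the direction of replicate 2 and by Epcam in the other direction, against 10.8% and 12.0% of the tested genes. The median log2 ratio of the 13 was 0.51. Cldn4, 1 of the 3 called, and Trp63 are among the 13 through replicate 2 alone.

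The basal keratins form the filaments of the lowest epidermal layer. Krt5 was at 6.51 TPM in replicate 2 against 4.32 TPM in replicate 1, a ratio of 1.48 (95% interval 1.21 to 1.80, exact binomial test, adjusted p = 0.000574). Its partner Krt14 was at 4.55 TPM in replicate 2 against 3.67 TPM in replicate 1, with an adjusted p of 0.319 in the exact binomial test. Krt15, another basal keratin, was at 6.47 TPM in replicate 2 against 4.72 TPM in replicate 1, and its exact binomial test gave an adjusted p of 0.00892. None of these basal keratins passed the 1.5-fold threshold.

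The keratins of simple epithelia stood at like levels. Krt8 was at 7.51 TPM in replicate 2 against 5.39 TPM in replicate 1, a ratio of 1.36 with an adjusted p of 0.00936 in the exact binomial test, and it had the highest mean of the epithelial members. Krt18, with which it pairs in filaments, was at 3.64 TPM in replicate 2 against 2.69 TPM in replicate 1 (adjusted p = 0.229, exact binomial test). The TPM of Krt8 over that of Krt18 was 2.06 in replicate 2 and 2.00 in replicate 1, and that of Krt5 over Krt14 was 1.43 in replicate 2 and 1.18 in replicate 1. Krt19, the smallest keratin (chromosome 11, 100140810 to 100148665), was at 4.48 TPM in replicate 2 against 3.05 TPM in replicate 1. Its 123 counts in replicate 2 against 63 in replicate 1 gave a ratio of 1.51 (95% interval 1.11 to 2.08, exact binomial test, adjusted p = 0.0364), so its call sits at the threshold.

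Among regulators of epithelial identity, Grhl3, a grainyhead factor needed for the skin barrier and for neural tube closure (chromosome 4, 135541888 to 135573630), was at 5.56 TPM in replicate 2 against 3.25 TPM in replicate 1. Its 335 counts in replicate 2 against 155 in replicate 1 gave a ratio of 1.67 (95% interval 1.38 to 2.04, exact binomial test, adjusted p = 1.34e-06). The deposited TPM intervals of Grhl3 did not overlap. Its relative Grhl2 had 31 counts in replicate 2 against 33 in replicate 1, a ratio of 0.727 (adjusted p = 0.413, exact binomial test), while its TPM was 0.49 in replicate 2 and 0.43 in replicate 1. Grhl2 shares 169 exonic bases with Gm16136 on the opposite strand, at 1.5 TPM in replicate 2 against 0.74 TPM in replicate 1. Trp63, which encodes p63, the master factor of stratified epithelium, was at 1.34 TPM in replicate 2 against 0.72 TPM in replicate 1 (adjusted p = 0.0960, exact binomial test). Esrp1, a splicing regulator of epithelial cells, was at 4.04 TPM in replicate 2 against 3.31 TPM in replicate 1, a ratio of 1.31 with an adjusted p of 0.0157 in the exact binomial test.

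The junction and surface genes did not move as one. Cldn4, a claudin of tight junctions (chromosome 5, 134945119 to 134946934), was at 1.67 TPM in replicate 2 against 0.76 TPM in replicate 1. Its 64 counts in replicate 2 against 23 in replicate 1 gave a ratio of 2.15 (95% interval 1.32 to 3.64, exact binomial test, adjusted p = 0.00749). Cldn6, a claudin of embryonic epithelia, was at 2.25 TPM in replicate 2 against 1.40 TPM in replicate 1, with an adjusted p of 0.108 in the exact binomial test. Epcam, the adhesion molecule of simple and embryonic epithelia, went the other way, at 2.90 TPM in replicate 2 against 4.10 TPM in replicate 1. Its ratio of 0.692 (95% interval 0.540 to 0.886, exact binomial test, adjusted p = 0.0171) was a change of less than 1.5-fold, and its deposited intervals did not overlap. Perp, a desmosome protein controlled by p63, was at 5.38 TPM in replicate 2 against 4.10 TPM in replicate 1 (adjusted p = 0.0965, exact binomial test).

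In the wider epithelial list of 40 genes, 18 reached a mean of 1 TPM, with a median log2 ratio of 0.17. Of these, 3 were called higher and 0 lower, against 2.14% and 1.41% of all genes at that level. Cdh3, the placental cadherin, was among the called ones, with a ratio of 1.57. None of the 3 was called in edgeR's negative binomial exact test. The most abundant were Jup, a junction protein shared with many other cells, at 44.1 TPM in replicate 2 against 37.2 TPM in replicate 1, then Itga6 and Spint2. Of the 40, 19 were under 1 TPM in both libraries, and Dsg3, a desmoglein of stratified epithelium, was at 0 in both. Others were detected, with Krt10 at 10.05 TPM in replicate 2 against 10.24 TPM in replicate 1. Lor was at 2.52 TPM in replicate 2 against 2.22 TPM in replicate 1, and Krt1 at 1.86 TPM against 2 TPM.

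No muscle gene passed the test between the pools, and the myogenic factors were near 0. The 4 MyoD family genes, which switch on the muscle programme, had 5 counts in replicate 2 against 8 in replicate 1 in all. Myod1 had 2 counts in replicate 2 against 1 in replicate 1, and Myog had 3 in replicate 2 against 6 in replicate 1. Myf5 had 0 in replicate 2 and 1 in replicate 1, and Myf6 had 0 in both. Mymk, the membrane protein of myoblast fusion, had 3 counts in replicate 2 against 0 in replicate 1. These 5 genes had too few counts for the test, and a difference was not detectable at this depth.

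Of the sarcomere and filament genes, 11 could be tested and 7 were at a mean of at least 1 TPM. In the exact binomial test 0 of the 11 had an adjusted p under 0.05 in either direction. Of all tested genes, 10.8% did in the direction of replicate 2 and 12.0% in that of replicate 1. An unadjusted p under 0.05 in that test was reached by 3 of the 11, against 15.6% and 16.7% of all tested genes. They were Tnnt2 and Tnni1 in the direction of replicate 2 and, by its counts, Ttn in that of replicate 1. The median log2 ratio of the 7 was 0.09, with 5 over 0 and 2 under. Of all genes at a mean of at least 1 TPM, 49.7% were over 0. Tnni1 is among the 7 through replicate 2 alone. Tnnt1, the troponin T of slow skeletal fibres, was the most abundant at 9.16 TPM in replicate 2 against 8.78 TPM in replicate 1, a ratio of 1.02 (95% interval 0.795 to 1.30, exact binomial test, adjusted p = 0.970). It held 35.4% of the summed muscle TPM in replicate 2 and 39.2% in replicate 1. The thin filament actin Actc1, which heart and embryonic skeletal muscle share, was at 3.80 TPM in replicate 2 against 3.49 TPM in replicate 1, and the adult skeletal actin Acta1 at 0.74 TPM in replicate 2 against 1.02 TPM in replicate 1.

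Other troponins had ratios over 1 that did not pass the test. Tnni1, the inhibitory troponin of slow fibres, was at 1.85 TPM in replicate 2 against 0.85 TPM in replicate 1, with a ratio of 1.96 and an adjusted p of 0.0959 in the exact binomial test. Tnnt2, the cardiac troponin T, was at 2.09 TPM in replicate 2 against 1.26 TPM in replicate 1 (adjusted p = 0.141, exact binomial test). Tnnc1, the calcium-binding troponin of heart and slow muscle, was at 2.47 TPM in replicate 2 against 1.56 TPM in replicate 1 (adjusted p = 0.343, exact binomial test). These rest on 34 to 50 counts in replicate 2 and 15 to 23 in replicate 1. The TPM of Tnnt2 lay below its deposited interval in both libraries, and that of Tnni1 did in replicate 1, where its posterior mean was 1.68 TPM. In all, 9 of the 40 members had a TPM outside its interval in a library, the others being Runx2, Ttn, Grhl2 and 4 genes listed at 0 in a library. The myosin light chain genes were nearer to each other, with Myl1 at 1.61 TPM in replicate 2 against 1.48 TPM in replicate 1, though its count ratio was 0.946, and Myl4, the atrial and embryonic chain, at 1.78 TPM in replicate 2 against 1.98 TPM in replicate 1.

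Myh3, the embryonic myosin heavy chain, was at 0.63 TPM in replicate 2 against 0.57 TPM in replicate 1. Des, which encodes the intermediate filament desmin and is also made in smooth muscle, was at 1.02 TPM in replicate 2 against 0.75 TPM in replicate 1. The giant sarcomere gene Ttn had 99 counts in replicate 2 against 107 in replicate 1, a ratio of 0.716 (adjusted p = 0.0679, exact binomial test). Its TPM of 0.43 in replicate 2 and 0.36 in replicate 1 ran the other way, and its deposited intervals, 0.874 to 2.47 TPM in replicate 2 and 0.989 to 3.02 TPM in replicate 1, excluded these TPM. The sign of its count ratio entered the counts of members by direction, and no direction is otherwise given for Ttn.

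In the wider muscle list of 36 genes, 26 were under 1 TPM in both libraries and 9 reached a mean of 1 TPM. By the exact binomial rule 0 were called in either direction, against 3.55% of all genes at that level. By edgeR's negative binomial exact test 0 were called, against 0.711% of all genes higher and 0.612% lower. At any ratio, 4 of the 25 tested genes of the list had an adjusted p under 0.05 in the direction of replicate 2 and 1 in that of replicate 1, against 10.8% and 12.0% of all tested genes. Among the most abundant were Tpm2, a tropomyosin that smooth muscle also makes, at 50.5 TPM in replicate 2 against 36.95 TPM in replicate 1, and Srl. The acetylcholine receptor subunits Chrnd and Chrng of young muscle and the fusion protein Mymx were at 0 in both libraries. Other genes of the list were detected. The subunit Chrnb1 was at 1.43 TPM in replicate 2 against 1.06 TPM in replicate 1, and Mylpf at 7.07 TPM against 8.4 TPM. The subunit Chrna1 had 14 counts in replicate 2 against 22 in replicate 1, and Cdh15 had 25 against 34.

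Lists of other cell types were set beside these values. Of all genes at a mean of at least 1 TPM, 49.7% had a ratio over 1, 2.14% were called higher and 1.41% lower. Of 9 cardiac genes, 5 were at a mean of at least 1 TPM, led by Tnni3, Myl2 and Hcn4. Their sum was 12.8 TPM in replicate 2 against 8.07 TPM in replicate 1, 2 were called higher (Myl2 and Nppa), though not in edgeR's negative binomial exact test, and the heart factor Nkx2-5 had 2 counts in replicate 2 against 1 in replicate 1. Of 8 smooth muscle genes, 0 were called, and the sum was 137.5 TPM in replicate 2 against 106.2 TPM in replicate 1, led by Acta2, Smtn and Tagln. Des is on that list as well. Of 14 genes of mesenchyme and meninges, led by the collagens Col3a1, Col1a1 and Col1a2, all 14 were at 1 TPM or more, 13 had a ratio over 1 and 1, Foxc2, was called higher. Their sum was 1634 TPM in replicate 2 against 1160 TPM in replicate 1, with a median log2 ratio of 0.37. Foxc2, a forkhead factor of head mesenchyme, was at 14.4 TPM in replicate 2 against 5.44 TPM in replicate 1, a ratio of 2.58.

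Endothelial, macrophage and red cell genes had median log2 ratios of 0.22, 0.36 and 0.17, with 8 genes each, all at 1 TPM or more, and among these genes the macrophage gene Trem2 was called higher, again not in the negative binomial test. Genes of endoderm and yolk sac were lower in replicate 2, with a sum of 27.6 TPM in replicate 2 against 70.7 TPM in replicate 1, 3 of 5 called lower (Afp, Apoa1 and Ttr), and Alb and Cdx2 at 0 in both. Ttr, Sox17 and Afp were its most abundant genes, and the fetal serum protein gene Afp had 4 counts in replicate 2 against 419 in replicate 1. Of 8 choroid plexus genes, led by Otx2, Ttr and Folr1, 6 were at a mean of at least 1 TPM, Aqp1 was called higher and Ttr, Kcne2 and Clic6 lower. Of 11 genes of placodes, oral ectoderm and pituitary, with Pomc and Eya1 among the most abundant, 5 were at that level and 2, Eya1 among them, were called higher, while Foxe1 was at 0 in both. Aqp1 and Eya1 were not called in the negative binomial test. The 12 midbrain and neural genes had a median log2 ratio of -0.03, with 0 called. Genes of these lists named for their call and not for their level were chosen after their values were seen. Whether these tissues enter into the member values was not tested.

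**Figure D3:**
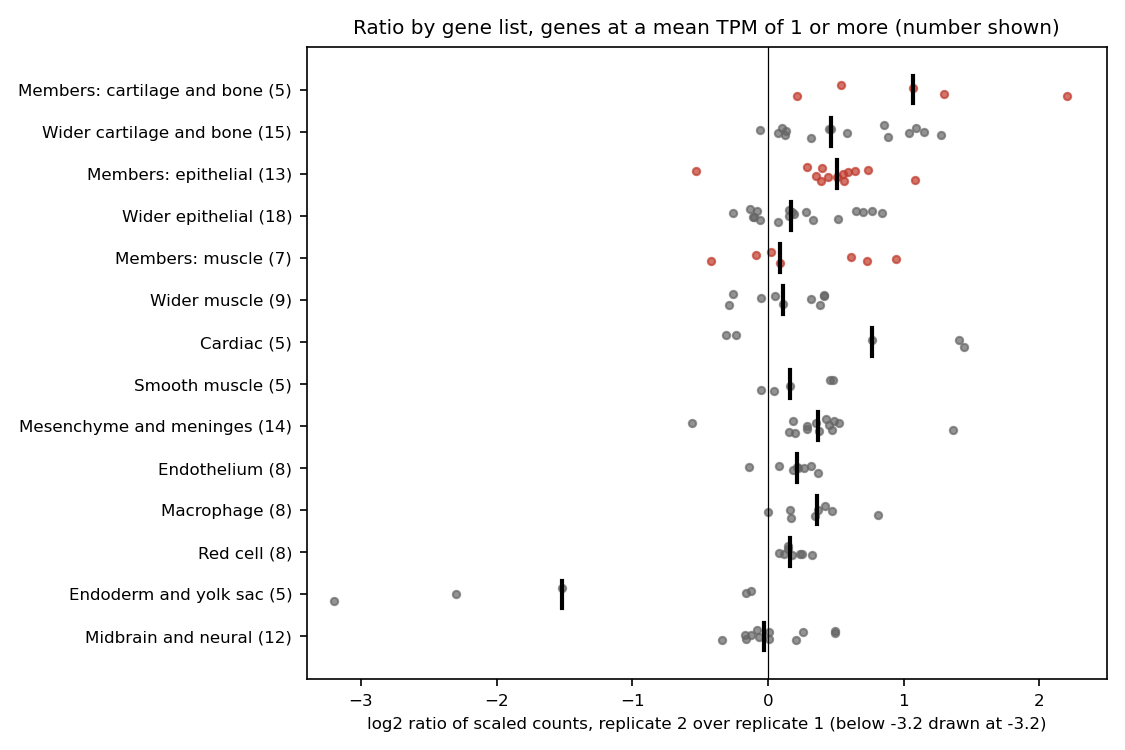
Log2 ratio of scaled counts, replicate 2 over replicate 1, for genes at a mean of at least 1 TPM in the member groups (red), the wider lists and lists of other cell types (grey), with a bar at each median. The member medians are 1.07 for cartilage and bone, 0.51 for epithelium and 0.09 for muscle, the midbrain and neural median is -0.03, and points below -3.2 are drawn there.

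The leading transcript was mostly the same in the pools, while its share could differ. Of 21 members with at least 2 annotated transcripts, 20 had counts in both libraries and 17 of them had the same leading transcript. Alpl-201 held 99.4% of the Alpl abundance in replicate 2 and 100% in replicate 1, and Krt15-201 held 100% of that of Krt15 in replicate 2 and 90.7% in replicate 1. Matn4-201 held 86.8% of the Matn4 abundance in replicate 2 and 76.3% in replicate 1. The abundance of Cnmd was shared, with Cnmd-203 at 46.3% in replicate 2 and 47.9% in replicate 1 and Cnmd-201 at 42.8% in replicate 2 and 39.9% in replicate 1. Tnnt1-206 led Tnnt1 with 31.99% in replicate 2 and 39.8% in replicate 1. Wider gaps stood in members of few counts, named after their values were seen: Tnni1-207 held 56.3% in replicate 2 and 90.6% in replicate 1, Myl1-202 60.3% in replicate 2 and 86.5% in replicate 1, and Tnnt2-207 96.5% in replicate 2 and 67.9% in replicate 1. Retained-intron transcripts, named after their values were seen, held 13.2% of Matn4 in replicate 2 and 18.2% in replicate 1 (Matn4-205), and 7.10% of Cnmd in replicate 2 and 12.2% in replicate 1 (Cnmd-202).

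The leading transcript differed in Trp63, Grhl2 and Myh3, each at a mean near or under 1 TPM. Trp63-205 led in replicate 2 with 35.96%, against 27.8% in replicate 1, and Trp63-201 held 16.4% in replicate 2 and 53.3% in replicate 1. For Grhl2, Grhl2-205 held 38.1% in replicate 2 and 41.2% in replicate 1, Grhl2-204 held 35.5% in replicate 2 and 0% in replicate 1, and Grhl2-201 held 26.4% in replicate 2 and 58.9% in replicate 1. For Myh3, Myh3-202 held 89.5% in replicate 2 and 0% in replicate 1, and Myh3-201 held 10.3% in replicate 2 and 81.7% in replicate 1. The posterior SD of the Myh3-201 count was 19.5 in replicate 2, where the count was 8.47, so the split among these near-identical transcripts is uncertain.

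**Figure D4:**
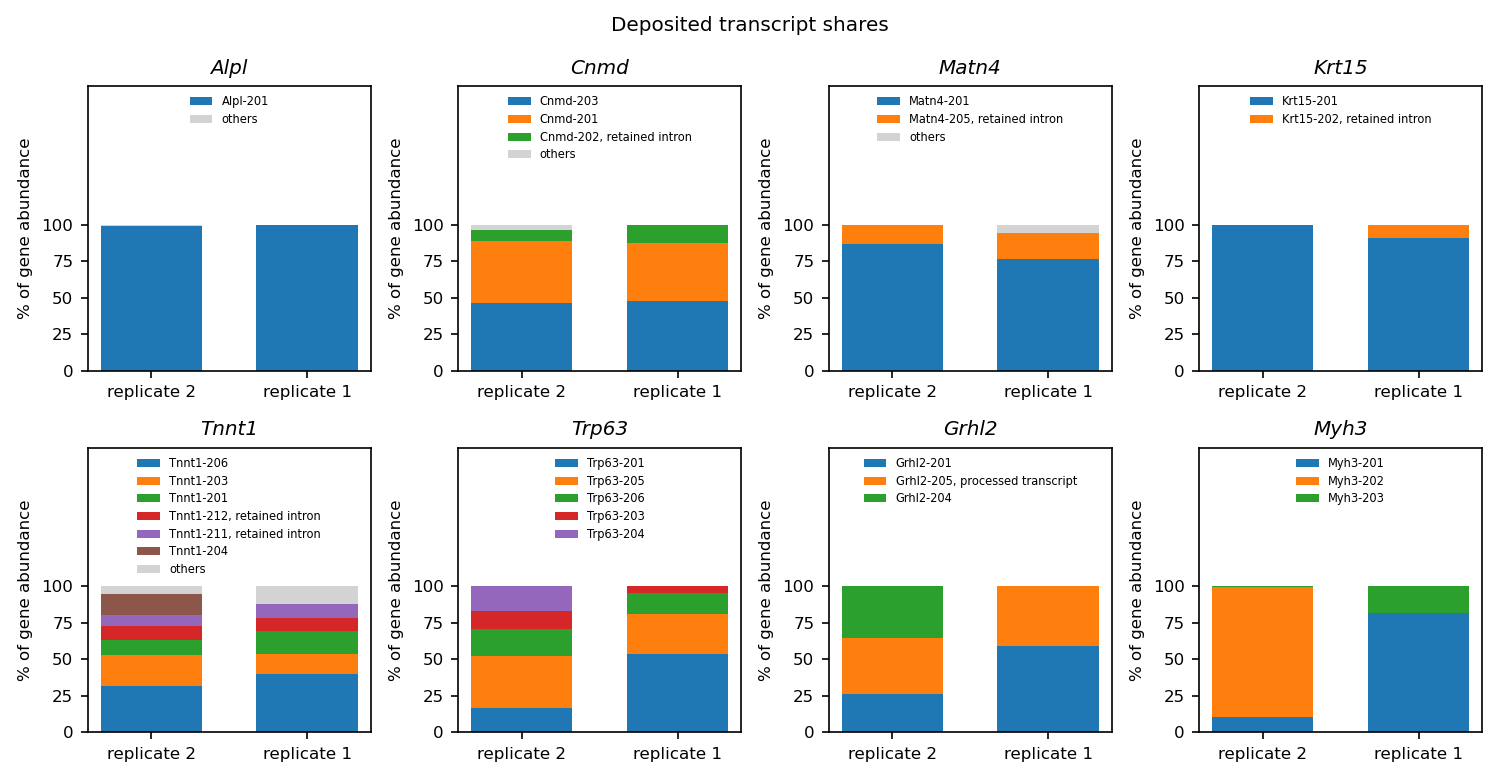
Deposited share of each annotated transcript in the abundance of its gene, in replicate 2 (left bar) and replicate 1 (right bar), in percent, for the 5 members at a mean of at least 5 TPM with several transcripts and the 3 whose leading transcript differed. Alpl and Matn4 are led by 1 transcript in both libraries, and the Myh3 bars change from Myh3-202 in replicate 2 to Myh3-201 in replicate 1.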

How the data were processed

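Total RNA longer than 200 nt was extracted with mirVana, 10 ng was used per library, and spike-ins were added, per the labels. The protocol links name a SMARTer Ultra Low RNA kit manual, and priming and strandedness are not settled here. The deposited expected counts are the authors' estimated counts per gene and transcript. The deposited TPM, the authors' posterior mean TPM and the percent of a gene given to each transcript came from the same tables, per the file headers, with TPM intervals that a deposited TPM can lie outside. The authors used GENCODE M4 and mm10, per the deposited notes, and the aligner is not given in the sources used here. GENCODE M21 (mm10) gave names and coordinates for 42462 of 43346 genes.

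Expected counts were rounded for tests and scaled by TMM factors of edgeR 4.0.16 (R 4.3.3), 1.005 for replicate 2 and 0.995 for replicate 1. Spike-ins and 26248 short features named by number did not enter the tests. Each of 18939 genes with at least 10 counts summed had a two-sided exact binomial test between the libraries, with Benjamini-Hochberg adjustment over all of them. Log2 ratios had 0.5 counts added. Ratios and their 95% exact binomial intervals had none added. A zero was set to 3 counts per library for a bound. Intervals and bounds cover counting error only. The pools are separate per the labels, and p-values compare these 2 libraries, not conditions. The exact binomial calls were tested on simulated data with counting error only, so that test does not cover the spread between pools. Scripts ran in Python 3.11.15 with scipy 1.17.1.

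The members and gene lists were chosen with earlier results of these data known. Every member is named. In the other lists the 3 most abundant genes are named, with, in the wider lists, up to 4 called genes each way with the largest ratio and markers at or near 0. Beside the markers at 0, some detected genes of the wider epithelial and muscle lists are named, chosen after their values were seen. Some genes within this rule are left unnamed and stay in the counts. Transcripts are named for members at a mean of at least 5 TPM, and for members whose leading transcript differed where a transcript held at least 20%. Alternatives were other size factors (DESeq2 1.42.0, total counts), other thresholds and added counts, a negative binomial exact test of edgeR, posterior mean TPM and leaving out each library.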

Additional observations from a re-analysis of the deposited data

How the results depend on the processing

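The count of members called higher stayed at 6 with DESeq2 size factors and with total counts. It was 3 with edgeR's negative binomial exact test (Cnmd, Matn4, Runx2) and 2 with a mean of at least 5 TPM (Cnmd, Matn4). It was 4 at a 2-fold ratio, 4 with non-overlapping TPM intervals, and 9 with at least 1 count and no TPM minimum, which added Acan, Matn1 and Sp7. The count called lower was 0 under each of these. Over all genes, 325 were called higher, against 479 with no TPM minimum, 108 with the negative binomial exact test, 136 at 5 TPM, 111 at 2-fold and 177 with intervals apart. The 214 called lower became 371, 93, 70, 102 and 111 under the same settings in that order. Krt19, at the 1.5-fold threshold, lost its call under each of the last 4 rules. Over 245 pairs of a member and an alternative, 231 kept their call status, 11 lost a call and 3 gained one. The rules of 5 TPM, 2-fold and separate intervals can only remove calls, so members not called kept their status there by construction. A direction could change only with the other size factors, since the other rules reuse the same ratio, and 0 changed. Median log2 ratios stayed between 0.47 and 0.52 for epithelial members, 0.02 and 0.12 for muscle and 0.92 and 1.18 for cartilage and bone. With Matn1 set against 3 counts in replicate 1, the median of the 10 skeletal members was 1.18. This could not differ from the value without that setting, since Matn1 lies above the middle of the 10 either way. The muscle median of 0.840 TPM became 1.38 TPM with posterior mean TPM and 1.82 TPM over members at a mean of at least 1 TPM, where the skeletal median became 8.86 TPM. Leaving out each library gave 3.28 to 4.26 TPM for epithelial, 0.80 to 0.88 TPM for muscle and 1.00 to 2.27 TPM for skeletal members. The cause of these shifts was not tested, other than that a minimum level drops the low members. Calls need both libraries, so neither could be left out of them. No paired analysis was possible because the samples form 1 group. Depth limits the MyoD family, Mymk and Comp, which rest on 0 to 11 counts in all.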
